A study of Rattus norvegicus with 6 samples.

Results

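The matrix metalloproteinases (MMP), the ADAM and ADAMTS proteases, the ADAMTS-like proteins (ADAMTSL) and the tissue inhibitors of metalloproteinases (TIMP) were compared between rat dorsal root ganglion cultures kept in high glucose and control cultures. Members were the rows of the deposited mRNA table whose symbol was Mmp, Adam, Adamts, Adamtsl or Timp followed by its number. This gave 57 of 16551 genes: 14 MMP, 15 ADAM, 19 ADAMTS, 5 ADAMTSL and 4 TIMP genes. RefSeq (GRCr8) names 80 protein-coding rat genes by the same pattern, and the 23 that are not among these 57 were not analysed here. Primary cells from lumbar to sacral dorsal root ganglia of rats, the clusters of sensory neurons and supporting cells beside the spinal cord, had been trypsinised, cultured for 48 h and lysed for RNA sequencing. The DM group (3 samples) is taken to be the one grown in medium with glucose at 45 mmol/L, since the design names a normal and a high-glucose culture and the labels name control and DM without joining these names in words. The control group (3 samples) is taken to be the culture in DMEM, whose glucose concentration was not given. The growth protocol also describes fixation in paraformaldehyde, and whether the sequenced cells had been fixed was not given. Strain, age and sex of the rats were not given, and neither was whether the 3 samples of a group came from separate cultures or rats, so the p-values reflect how far these 3 samples scatter, and that scatter may be technical.

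MMPs, ADAMs and ADAMTS proteases are zinc-dependent enzymes that cut proteins of the extracellular matrix and of the cell surface. Most MMPs are secreted as inactive precursors, while the membrane-type MMPs and the ADAMs are held at the cell surface, where ADAMs release the outer parts of growth factors, receptors and adhesion molecules. ADAMTS enzymes are secreted and cut proteoglycans, procollagens and microfibril proteins, ADAMTS-like proteins resemble them without the enzyme domain, and TIMPs block the active site of these proteases. In peripheral nerve, proteases of these families are known for remodelling the matrix and the myelin sheath after injury.

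The 6 libraries held between 28780612 and 33108451 reads over the genes of the mRNA table. Values are CPM (counts per 1000000 reads) on library sizes that the authors had scaled, and log2 fold changes are DM minus control with their standard error (SE), from 3 samples per group. Called, higher, lower, rose and fell refer to an adjusted p under 0.05 in limma over all 16551 genes. The label of nerve cells was set against marker genes: Rbfox3, a nuclear protein of neurons, was at 0.11 CPM in DM and 0.083 CPM in control, and Snap25, a synaptic protein, at 0.0375 and 0.324 CPM, whereas Col1a1, a collagen chain of fibroblasts, was at 26200 CPM in DM and 34800 CPM in control. Rbfox3 and Snap25 were thus scarce in both groups, while Tubb3, a tubulin of neurons, was at 8.89 CPM in DM and 23.1 CPM in control. Uchl1, the most abundant of the neuronal markers listed, was at 48.0 CPM in DM and 58.8 CPM in control. The summed CPM of 4 fibroblast markers was 26472 to 28981 in DM and 34024 to 36417 in control, where Col1a1 fell and Pdgfra, Dcn and Lum rose (0.88, 1.23 and 2.15 on the log2 scale). That of 3 satellite glia markers was 93.3 to 102 in DM and 51.4 to 53.3 in control, nearly all of it from Glul (95.4 CPM in DM and 51.0 CPM in control), which rose, while Fabp7 fell (-1.20 ± 0.29) and Kcnj10 did not pass. That of 4 endothelial markers was 16.7 to 17.2 in DM and 27.6 to 31.6 in control, a difference carried by Ptprb alone (1.80 CPM in DM and 14.7 CPM in control), and Tek, Kdr and Cdh5 did not pass. No marker was at 0 reads in a group, and the part of any of these cell types in the results was not tested. In such bulk samples, fewer cells of a type and less RNA per cell cannot be told apart.

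Both rises and falls were found in 4 of the 5 families, and none of the families moved as a whole. Of the 57 members, 23 were higher and 17 lower in DM, so that 70.2% were called, beside 50.5% of all genes tested. By family, 71.4% of MMP, 73.3% of ADAM, 68.4% of ADAMTS, 60.0% of ADAMTSL and 75.0% of TIMP genes were called. Higher calls made up 40.4% of the members and 24.9% of all genes, and lower calls 29.8% of the members and 25.5% of all genes. The median of the mean log2 CPM was 3.89 over the members and 3.61 over all genes. Among genes with a mean log2 CPM of at least 0, 83.7% of 43 members and 61.7% of 12247 genes were called. The median log2 fold change was 0.09 over the members and 0.01 over all genes. Changes of at least 2-fold were called in 12 members, 6 higher and 6 lower, or 21.1% of them, beside 8.25% of all genes. The 3 DM values lay wholly above or wholly below the 3 control values in 40 of the 57 members (70.2%) and in 57.6% of all genes.

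**Figure D1:**
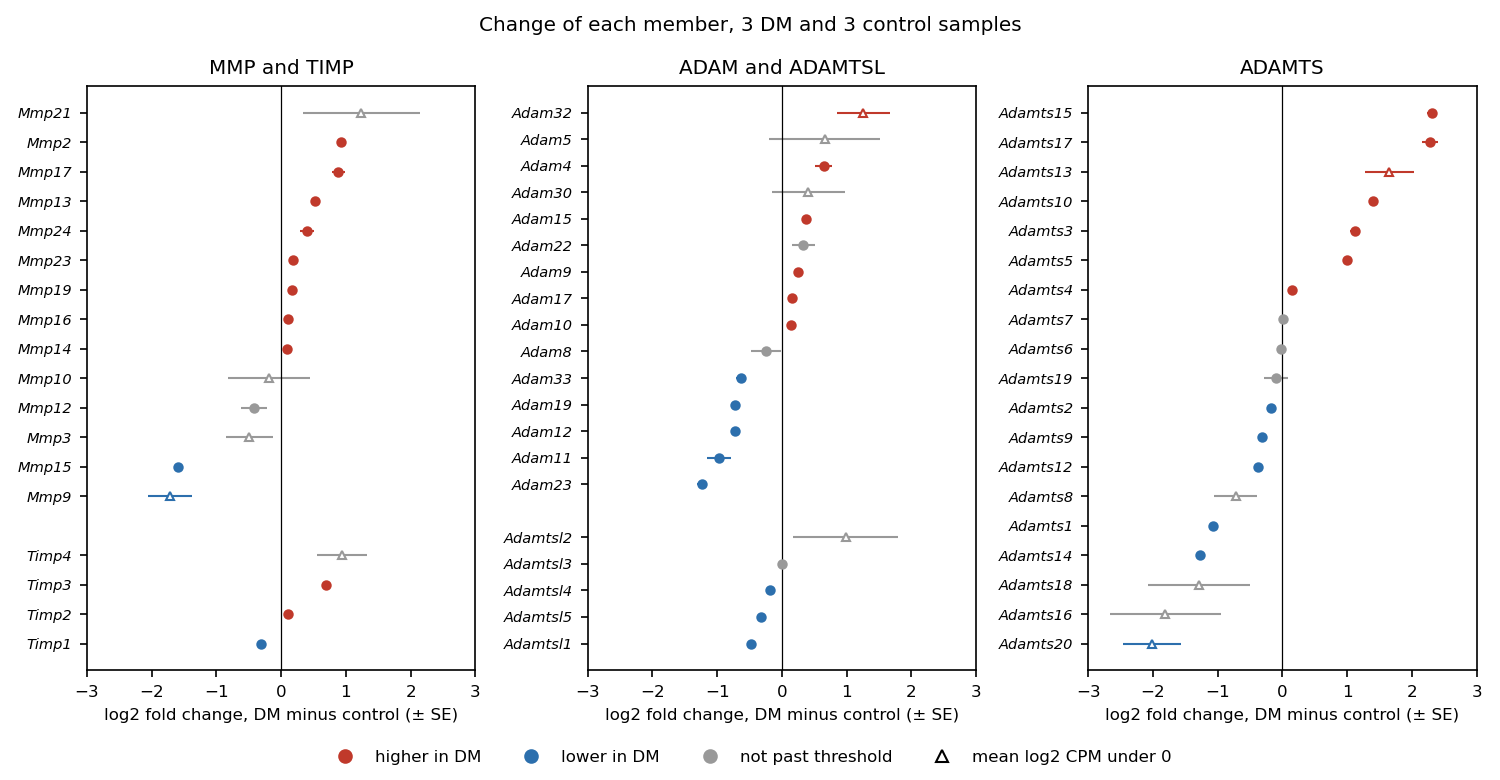
Log2 fold change (DM minus control, horizontal axis) with its SE for each of the 57 members by family, 3 samples per group. Red marks members higher in DM, blue those lower, grey those past no threshold, and open triangles members with a mean log2 CPM under 0. The ADAMTS family spans the widest range, from -2.01 (Adamts20) to 2.31 (Adamts15).

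Of the 14 MMP genes 8 were higher and 2 lower, and 4 did not pass. Mmp2, gelatinase A, which digests denatured collagen and the collagen of basement membranes, was at 741, 759 and 736 CPM in DM samples, against 391, 393 and 396 CPM in control samples. The groups were far apart, with a 1.90-fold higher level in DM (log2 fold change 0.92 ± 0.02, adjusted p = 2.32e-13 by limma). Mmp9, gelatinase B, an enzyme best known from leukocytes, went the other way on few reads. It had 20, 13 and 8 reads in DM samples and 37, 41 and 41 reads in control samples, without overlap (-1.71 ± 0.34, adjusted p = 0.000968 by limma). The gelatinases thus moved in opposite directions, and their reads differed widely, with 71145 reads of Mmp2 and 41 of Mmp9 over the DM samples. Beside the fall of Mmp9, the summed CPM of 5 macrophage markers was 26.4 to 27.6 in DM and 18.6 to 19.3 in control. Csf1r and Cd14 rose, Cd68, Aif1 and Ptprc did not pass, no marker was at 0 reads in a group, and Itgam was not among the genes of the table. The part of macrophages in these values was not tested.

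Among the membrane-type MMPs, Mmp15 fell and the others rose by less. Mmp15 was at 26.6, 27.8 and 26.0 CPM in DM samples, against 85.2, 80.6 and 78.0 CPM in control samples. It was 3.03-fold lower in DM (-1.60 ± 0.04, adjusted p = 2.91e-12 by limma), and the groups stood clearly apart. Mmp14, the membrane-bound activator of the Mmp2 precursor, was at 788, 773 and 798 CPM in DM samples, against 748, 732 and 741 CPM in control samples. That difference was small, 1.06-fold (0.09 ± 0.02, adjusted p = 0.00134 by limma), and its adjusted p was 0.0602 if every gene had the same variance prior (a single variance prior). Mmp16, another transmembrane member, had a log2 fold change of 0.11 ± 0.04 with overlapping groups. Its adjusted p of 0.0202 lay above 0.05 with a single variance prior (0.119) and without DM 2 (0.0506), DM 3 (0.0847), control 1 (0.0882) or control 2 (0.064). Mmp17, which is anchored by a lipid, was at 10.6, 12.3 and 12.5 CPM in DM samples, against 7.25, 6.0 and 6.0 CPM in control samples. It was 1.85-fold higher in DM (0.88 ± 0.10, adjusted p = 5.76e-06 by limma). Mmp24, a transmembrane member known from neural tissue, was at 6.58, 6.91 and 7.46 CPM in DM samples, against 4.88, 5.06 and 6.04 CPM in control samples (0.40 ± 0.11, adjusted p = 0.00783 by limma).

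Mmp13, the main interstitial collagenase of rodents, was at 14.1, 14.0 and 14.0 CPM in DM samples, against 9.56, 9.88 and 9.89 CPM in control samples. This was a 1.43-fold higher level in DM (0.52 ± 0.06, adjusted p = 1.35e-05 by limma). Of the remaining secreted enzymes, the stromelysin Mmp3, which digests several matrix proteins, had 28, 14 and 24 reads in DM samples and 16, 40 and 33 in control samples. The groups overlapped and Mmp3 did not pass (-0.49 ± 0.36, adjusted p = 0.275 by limma). Mmp12, the macrophage elastase, had 31, 40 and 39 reads in DM and 41, 52 and 43 in control. Its CPM values did not overlap between groups, but it did not pass either (-0.42 ± 0.20, adjusted p = 0.107 by limma), and its adjusted p was 0.0392 after quantile normalization, 0.0255 with a single variance prior and 0.0406 on log2(CPM + 1). Mmp19 and Mmp23, a secreted and a membrane-tethered enzyme, rose by 0.17 ± 0.02 and 0.18 ± 0.06. Mmp23 was at 20.8, 20.3 and 19.7 CPM in DM samples, against 17.6, 17.1 and 18.9 CPM in control samples. Its adjusted p of 0.0151 lay above 0.05 without DM 1 (0.0606) or control 2 (0.0637). Mmp10, the other stromelysin, and Mmp21 had 9 and 20 reads over the DM samples, 10 and 13 over the control samples, and did not pass.

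Mmp13, Mmp12, Mmp3 and Mmp10 stand in one cluster in the rat genome, with at most 4 other protein-coding genes between any 2 of them in RefSeq (GRCr8). Mmp13 rose and the other 3 did not pass. Their promoters are shown because all 4 hold a site for the transcription factor AP-1, a known regulator of these genes. Each line gives the 100 bases from 110 to 11 bases before the RefSeq start site, 5′ to 3′ on the plus strand of GRCr8, with the AP-1 site in capitals. The windows lie at chr8:12782719-12782818 (Mmp13), chr8:12866542-12866641 (Mmp12), chr8:12925171-12925270 (Mmp3) and chr8:12974597-12974696 (Mmp10).
Mmp13: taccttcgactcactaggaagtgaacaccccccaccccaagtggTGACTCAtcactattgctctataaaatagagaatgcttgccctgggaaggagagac
Mmp12: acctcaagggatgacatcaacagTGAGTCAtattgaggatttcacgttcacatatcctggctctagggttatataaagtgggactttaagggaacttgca
Mmp3: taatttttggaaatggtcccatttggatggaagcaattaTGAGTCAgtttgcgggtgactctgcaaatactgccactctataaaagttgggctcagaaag
Mmp10: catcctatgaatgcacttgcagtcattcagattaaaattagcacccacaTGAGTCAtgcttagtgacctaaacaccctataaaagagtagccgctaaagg

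The motif searched was TGAGTCA or TGACTCA, which are each other's reverse complement, in windows from 250 bases before to 50 after the start. It begins 66 bases before the start in Mmp13, 87 in Mmp12, 71 in Mmp3 and 61 in Mmp10. Of the 40 members with a window in the RefSeq table, 5 (12.5%) held it, the other being Adam19, at 169 bases before the start, and so did 5.04% of 27457 genes with a window. A match is a description of these letters, not a sign of binding. Among the genes of AP-1 subunits, Fosb rose 1.47-fold (0.56 ± 0.02), Fos, Jun and Fosl2 had log2 fold changes of 0.07 ± 0.02, 0.07 ± 0.02 and 0.12 ± 0.04, Fosl1 and Jund fell (-0.29 ± 0.08 and -0.15 ± 0.04), and Junb did not pass (-0.06 ± 0.03).

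The 4 TIMP genes did not share a direction. Timp3, which binds to the matrix and inhibits ADAM and ADAMTS enzymes as well as MMPs, was at 327, 316 and 340 CPM in DM samples, against 208, 203 and 199 CPM in control samples. It was 1.61-fold higher in DM (0.69 ± 0.03, adjusted p = 2.18e-10 by limma). Timp1, a secreted inhibitor of most MMPs, was at 127, 126 and 127 CPM in DM samples, against 157, 161 and 154 CPM in control samples. It was 1.24-fold lower in DM (-0.31 ± 0.03, adjusted p = 2.51e-07 by limma), and the groups of both genes lay well apart. Timp2, which joins the Mmp2 precursor to Mmp14, was at 540, 524 and 560 CPM in DM samples, against 511, 507 and 493 CPM in control samples. That was a 1.08-fold difference (0.10 ± 0.02, adjusted p = 0.0028 by limma), with an adjusted p of 0.077 under a single variance prior. Timp4 had 25, 11 and 22 reads in DM samples and 8, 11 and 7 in control samples, with overlap in DM 2. It did not pass (0.94 ± 0.39, adjusted p = 0.0586 by limma), and its adjusted p was 0.0168 without DM 2, 0.0339 when scaled by total reads and 0.035 on log2(CPM + 1).

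All 4 TIMP genes overlap another protein-coding gene in RefSeq (GRCr8), and the strand used in counting was not given, so reads of overlapping genes may not be told apart. Syn1, which overlaps Timp1, and Syn3, which overlaps Timp3, encode synapsins of nerve endings. They did not pass, with log2 fold changes of 0.04 ± 0.09 and 0.37 ± 0.33, and Syn3 had 56 reads in DM and 41 in control beside 31299 and 17954 of Timp3. Syn2, which overlaps Timp4, fell (-1.81 ± 0.45) on 12 reads in DM and 41 in control. Cep295nl, which overlaps Timp2, rose (0.55 ± 0.07).

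Ratios of a protease to an inhibitor within a sample do not depend on the scaling between samples, and 8 pairs were compared by exact two-sided permutation tests, in which 3 samples against 3 cannot give a p below 0.1. Mmp2 moved relative to Timp2: the log2 ratio of their CPM values was 0.46, 0.53 and 0.40 in DM samples, against -0.38, -0.37 and -0.32 in control samples. The ratio was 1.76-fold higher in DM (exact permutation p = 0.1, adjusted p = 0.133 over the 8 pairs). CPM values are not corrected for transcript length, so the sign of a log2 ratio does not say which transcript was more abundant. For Mmp14 and Timp2 the log2 ratio overlapped between groups, with means of 0.54 ± 0.0251 in DM and 0.56 ± 0.0292 in control (SD, n = 3 each, exact permutation p = 0.5). Mmp2 relative to Reck, a membrane-anchored inhibitor of MMPs that did not itself pass (0.09 ± 0.04), was 1.78-fold higher in DM. Relative to Timp3, the sheddase Adam17 and the proteoglycanase Adamts4 were 1.44-fold and 1.45-fold lower in DM, and Adamts5 was 1.24-fold higher. Mmp9 relative to Timp1 was 2.63-fold lower in DM, and Mmp3 relative to Timp1 overlapped between groups (difference in log2 ratio -0.18, exact permutation p = 0.6). All the pairs without overlap had the smallest p this design allows.

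**Figure D2:**
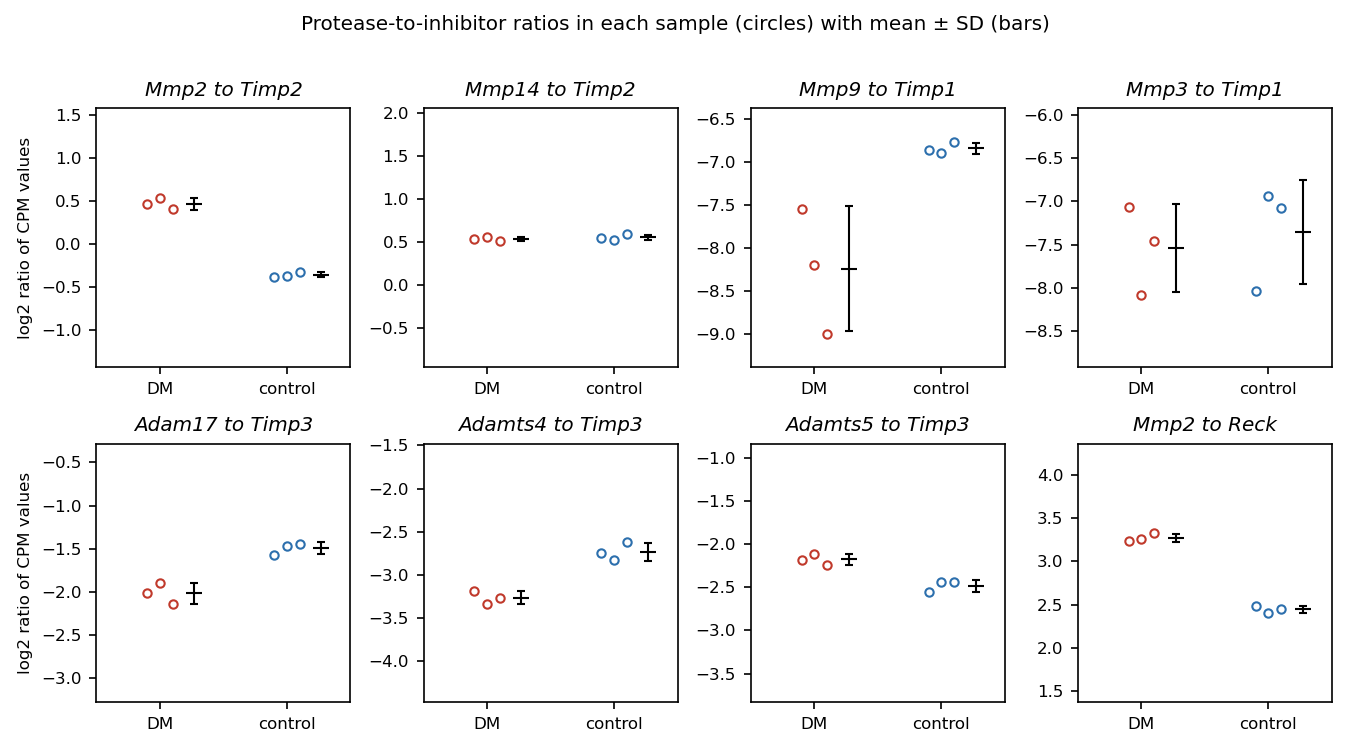
Log2 ratio of the CPM values of a protease and an inhibitor (vertical axes, all spanning the same range) in each of 3 DM (red) and 3 control (blue) samples, with mean ± SD. Mmp2 to Timp2 is higher in every DM sample than in any control sample, while Mmp14 to Timp2 overlaps.

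Among the ADAM genes, 6 of 15 were higher, 5 lower and 4 did not pass, and 4 of the 5 falls were larger than any rise among members with a mean log2 CPM of at least 0. Adam19, a sheddase of growth factor precursors that include neuregulins in mice, was at 731, 717 and 739 CPM in DM samples, against 1210, 1200 and 1180 CPM in control samples. It was 1.64-fold lower in DM (-0.72 ± 0.02, adjusted p = 1.81e-12 by limma). Adam12, its close relative in muscle and mesenchymal cells, was at 410, 412 and 402 CPM in DM samples, against 682, 669 and 679 CPM in control samples, and was 1.66-fold lower in DM (-0.73 ± 0.02, adjusted p = 2.3e-12 by limma). Adam33, of the same branch, was at 9.31, 9.59 and 9.45 CPM in DM samples, against 15.0, 13.7 and 15.3 CPM in control samples (-0.63 ± 0.07, adjusted p = 4.72e-06 by limma). These 3 genes, which had no overlap between groups, fell by similar amounts. After quantile normalization the fall of Adam19 was smaller (-0.49) than those of Adam12 (-0.64) and Adam33 (-0.65). The summed CPM of 5 mural cell markers, contractile proteins among them, was 4098 to 4202 in DM and 8693 to 8818 in control. Acta2, Myh11, Rgs5 and Cspg4 fell, Pdgfrb did not pass, and no marker was at 0 reads in a group. The part of mural cells in these falls was not tested.

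The broadly acting sheddases rose slightly. Adam10, which cuts Notch receptors and the amyloid precursor, was at 109, 106 and 117 CPM in DM samples, against 98.0, 104 and 98.8 CPM in control samples. It was 1.10-fold higher in DM (0.14 ± 0.04, adjusted p = 0.00582 by limma, and 0.0771 with a single variance prior). Adam17, which releases tumour necrosis factor and ligands of the epidermal growth factor receptor, was at 81.0, 84.7 and 77.0 CPM in DM samples, against 70.0, 73.3 and 73.2 CPM in control samples (0.16 ± 0.04, adjusted p = 0.00244 by limma). Adam15 was at 46.8, 49.9 and 48.9 CPM in DM samples, against 36.6, 38.1 and 37.0 CPM in control samples (0.38 ± 0.04, adjusted p = 2.22e-06 by limma). Adam9 was at 156, 159 and 155 CPM in DM samples, against 131, 129 and 136 CPM in control samples (0.25 ± 0.03, adjusted p = 3.98e-06 by limma). DM values lay above control values for all 4 genes, by at most 1.30-fold. Adam8, an ADAM of leukocytes, did not pass (-0.24 ± 0.23).

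Of the helpers of these sheddases, 2 of 8 measured were higher and 3 lower, so that 62.5% were called, beside 50.5% of all genes. Frmd8, which stabilises the ADAM17 complex, rose (0.15 ± 0.04), and Rhbdf2, an inactive rhomboid that carries ADAM17 to the surface, fell (-0.29 ± 0.09), while Rhbdf1 did not pass (-0.08 ± 0.03). Of the tetraspanins that escort ADAM10, Tspan15 was 2.47-fold lower in DM (-1.30 ± 0.17), Tspan14 fell by less (-0.22 ± 0.07) and Tspan5 rose (0.23 ± 0.04).

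The ADAMs of neural tissue lack an active enzyme site and act as adhesion proteins and receptors for secreted LGI proteins. Adam23 was at 7.81, 7.48 and 7.99 CPM in DM samples, against 16.8, 19.4 and 18.9 CPM in control samples, and was 2.36-fold lower in DM (-1.24 ± 0.07, adjusted p = 9.57e-09 by limma). Adam11 was at 1.82, 1.29 and 1.77 CPM in DM samples, against 3.22, 2.90 and 3.33 CPM in control samples (-0.97 ± 0.18, adjusted p = 0.000479 by limma). Adam22, which takes part in peripheral myelination in mice, overlapped between groups and did not pass (0.33 ± 0.18, adjusted p = 0.162 by limma, and 0.0378 without control 2). Beside these values, the summed CPM of 9 neuronal markers was 59.0 to 60.1 in DM and 90.0 to 94.1 in control, and 6 of them fell. Most of that sum came from Uchl1 (48.0 CPM in DM and 58.8 CPM in control). The summed CPM of 6 Schwann cell markers was 284 to 314 in DM and 462 to 483 in control, and all 6 fell. Beside these lists, 25.5% of all genes were called lower. No marker of either list was at 0 reads in a group, and the part of these cells in the falls of Adam11 and Adam23 was not tested.

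Of the ADAMs known mainly from the reproductive tract, Adam4 was at 5.45, 5.12 and 4.32 CPM in DM samples, against 3.08, 3.06 and 3.30 CPM in control samples (0.65 ± 0.13, adjusted p = 0.000752 by limma). In RefSeq Adam4 overlaps Cox16, a gene of respiratory chain assembly, which rose by less (0.19 ± 0.07) and had 1050 reads in DM and 852 in control, beside 470 and 276 of Adam4. Adam32 had 28, 17 and 31 reads in DM samples and 6, 18 and 7 in control samples, with overlapping CPM values. Its adjusted p of 0.02 lay above 0.05 with a single variance prior (0.0777) and without DM 1 (0.0816), DM 3 (0.0722), control 1 (0.0705) or control 3 (0.0669). Adam5 and Adam30 had 7 and 25 reads over the DM samples, 5 and 19 over the control samples, and did not pass.

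**Figure D3:**
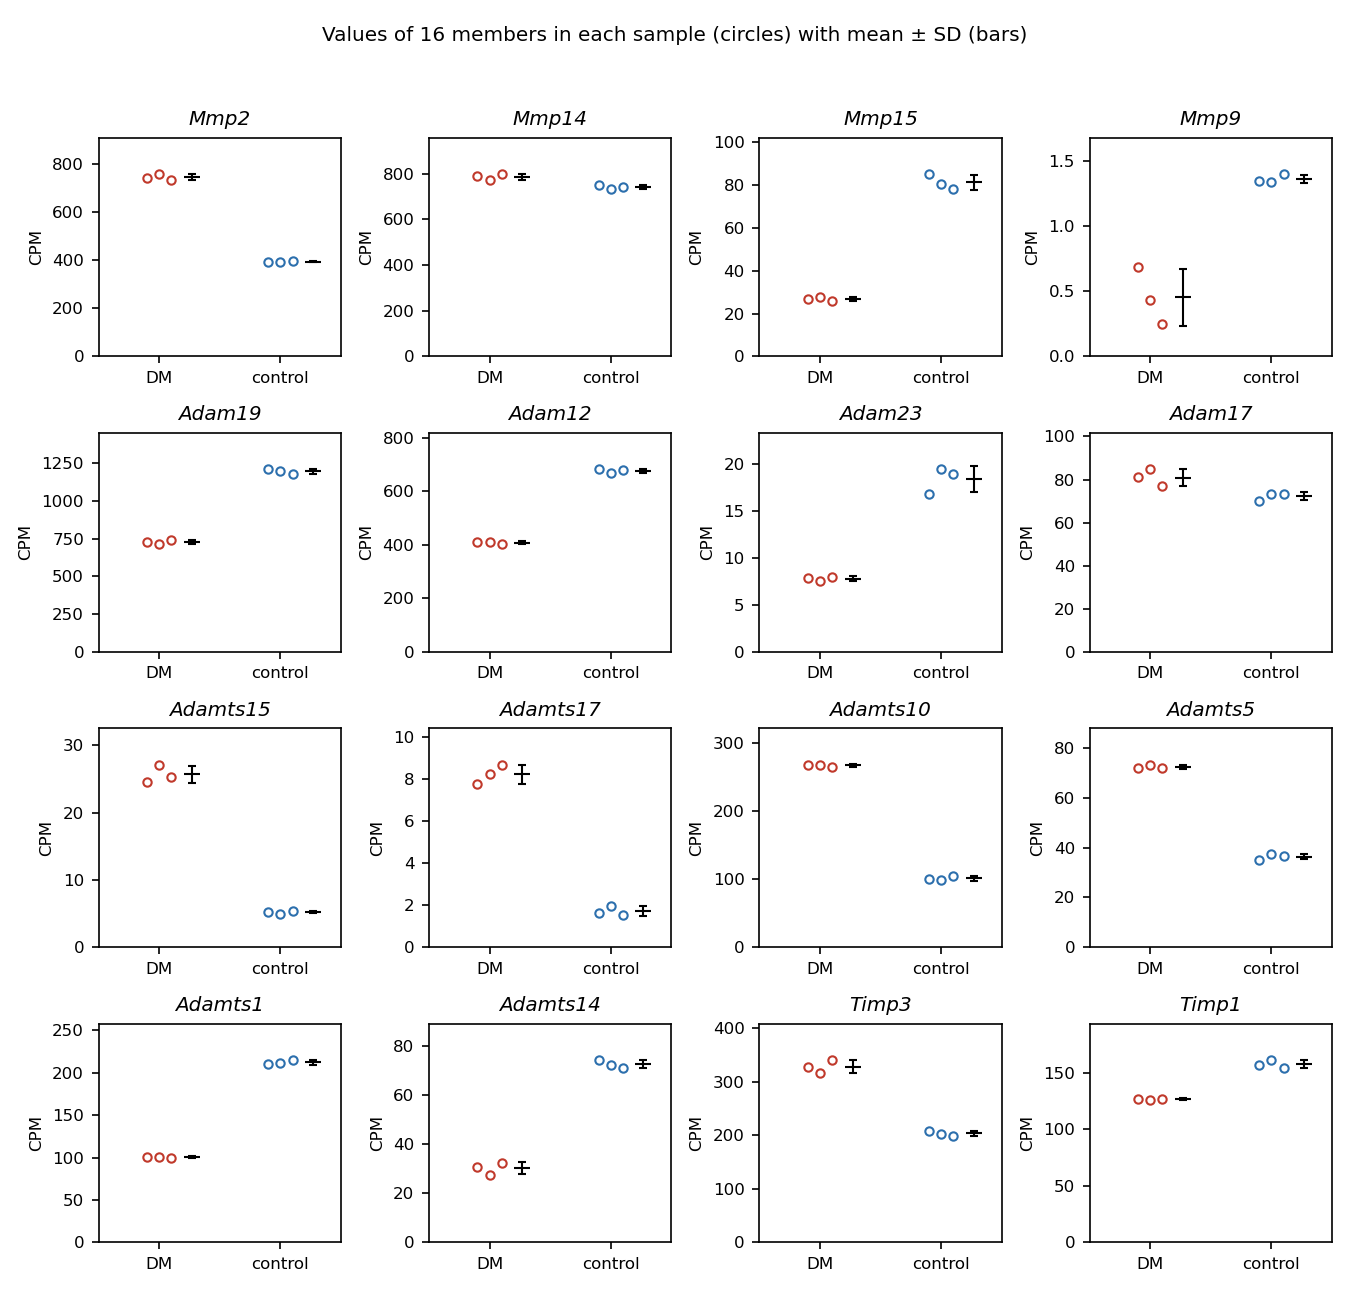
CPM (vertical axes, from 0) of 16 members in each of 3 DM (red) and 3 control (blue) samples, with mean ± SD beside the circles. In all 16 panels the circles of the groups do not overlap, and the distance ranges from slight (Mmp14, 1.06-fold) to wide (Adamts15, 4.94-fold).

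The ADAMTS genes held the largest rise and the largest fall of the 57 members, but the fall, in Adamts20 (-2.01), was on few reads. Among members with a mean log2 CPM of at least 0, the largest fall was that of Mmp15 (-1.60). Of the 19 ADAMTS genes 7 were higher, 6 lower and 6 did not pass. At least 2-fold were 5 of the rises and 3 of the falls, or 42.1% of the family, beside 8.25% of all genes. Among the proteoglycanases, Adamts15 was at 24.6, 27.1 and 25.3 CPM in DM samples, against 5.27, 4.97 and 5.33 CPM in control samples. It was 4.94-fold higher in DM (2.31 ± 0.07, adjusted p = 1.09e-11 by limma). Adamts5, an aggrecanase, was at 72.1, 73.4 and 72.0 CPM in DM samples, against 35.2, 37.4 and 36.7 CPM in control samples, and was 1.99-fold higher in DM (0.99 ± 0.04, adjusted p = 5.41e-11 by limma). Adamts1, which cuts versican and aggrecan, was at 101, 101 and 99.3 CPM in DM samples, against 210, 212 and 215 CPM in control samples, and was 2.12-fold lower in DM (-1.08 ± 0.02, adjusted p = 4.75e-13 by limma). Adamts1 and Adamts5 are direct neighbours among protein-coding genes in RefSeq (GRCr8), and they moved in opposite directions by similar amounts.

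Adamts9, a further proteoglycanase, was at 112, 106 and 110 CPM in DM samples, against 139, 133 and 135 CPM in control samples (-0.31 ± 0.03, adjusted p = 1.14e-06 by limma). Adamts4, the other main aggrecanase, was at 35.9, 31.2 and 35.3 CPM in DM samples, against 31.1, 28.6 and 32.3 CPM in control samples. The groups overlapped, and the difference passed narrowly (0.15 ± 0.06, adjusted p = 0.0466 by limma). Its adjusted p lay above 0.05 with a single variance prior (0.173), on log2(CPM + 1) (0.0656), and without DM 1 (0.186), DM 3 (0.144), control 1 (0.0724) or control 2 (0.195). Adamts20, known from pigment cell development in mice, had 4, 2 and 3 reads in DM samples and 14, 13 and 10 in control samples, and fell (-2.01 ± 0.45, adjusted p = 0.00211 by limma). Adamts8, the direct neighbour of Adamts15, had 49 reads over the DM samples and 72 over the control samples, and did not pass although its CPM values did not overlap (-0.72 ± 0.33, adjusted p = 0.087 by limma). Its adjusted p was 0.0309 without DM 1, 0.0451 after quantile normalization and 0.0456 on log2(CPM + 1).

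The transcripts of several proteoglycan substrates of these enzymes were lower. Aggrecan (Acan) was at 51.3 ± 1.74 CPM in DM and 135 ± 4.24 CPM in control (SD, n = 3 each), versican (Vcan) at 995 ± 13.8 and 1840 ± 15.2 CPM, and neurocan (Ncan) at 9.13 ± 0.975 and 56.4 ± 0.583 CPM. Their log2 fold changes were -1.39 ± 0.03, -0.88 ± 0.02 and -2.63 ± 0.07, and Bcan, brevican, did not pass (-0.21 ± 0.36).

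The procollagen N-propeptidases, which trim the amino end of fibrillar procollagens, divided. Adamts14 was at 30.7, 27.7 and 32.5 CPM in DM samples, against 74.4, 72.6 and 71.1 CPM in control samples, and was 2.40-fold lower in DM (-1.27 ± 0.05, adjusted p = 2.01e-10 by limma). Adamts3, which also activates a lymphatic growth factor, was at 21.2, 23.1 and 21.3 CPM in DM samples, against 10.8, 9.17 and 10.2 CPM in control samples, and was 2.17-fold higher in DM (1.12 ± 0.07, adjusted p = 2.06e-08 by limma). Adamts2 was at 40.9, 41.4 and 42.4 CPM in DM samples, against 47.0, 47.5 and 46.8 CPM in control samples (-0.18 ± 0.03, adjusted p = 0.000689 by limma, and 0.121 when scaled by total reads). All 3 genes were thus called, 1 of them upward. Bmp1, the protease that trims the other end of procollagens, rose (0.22 ± 0.02), and its relative Tll1 fell (-0.73 ± 0.04).

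Adamts10, which associates with fibrillin microfibrils, was at 268, 268 and 265 CPM in DM samples, against 100.0, 98.2 and 105 CPM in control samples. It was 2.64-fold higher in DM (1.40 ± 0.03, adjusted p = 1.86e-13 by limma). Adamts6, the nearest relative of Adamts10, was at 137 ± 3.16 CPM in DM and 139 ± 0.662 CPM in control (SD, n = 3 each) and did not pass (-0.02 ± 0.03). When scaled by total reads it was called higher (0.09, adjusted p = 0.0105 by limma). Adamts17, mutated like Adamts10 in human disorders of short stature and lens position, was at 7.75, 8.22 and 8.66 CPM in DM samples, against 1.64, 1.96 and 1.51 CPM in control samples. It was 4.85-fold higher in DM (2.28 ± 0.13, adjusted p = 9.71e-09 by limma), whereas its relative Adamts19 overlapped between groups (-0.10 ± 0.18, adjusted p = 0.691 by limma). Of both related pairs, therefore, one gene rose by more than 2-fold and the other did not pass.

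The enzymes that cut cartilage oligomeric matrix protein were Adamts12 and Adamts7. Adamts12 was at 435, 428 and 412 CPM in DM samples, against 547, 553 and 548 CPM in control samples (-0.37 ± 0.02, adjusted p = 8.11e-09 by limma, and -0.24 after quantile normalization), and Adamts7 did not pass (0.01 ± 0.05, adjusted p = 0.9 by limma, and 0.0333 at 0.12 when scaled by total reads). Comp, which encodes the substrate, rose (0.74 ± 0.22). Adamts13, the protease of von Willebrand factor, had 18, 24 and 26 reads in DM samples and 6, 10 and 4 in control samples and rose (1.65 ± 0.38, adjusted p = 0.00256 by limma). In RefSeq it overlaps Cacfd1, which rose by 0.25 ± 0.07 and had far more reads, 1459 over the DM samples and 1130 over the control samples, beside 68 and 20 of Adamts13. Adamts16 and Adamts18 had 10 and 2 reads over the DM samples and 23 and 6 over the control samples and did not pass. The adjusted p of Adamts16 was 0.0388 with a replicate block and 0.021 without DM 2.

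Of the 5 ADAMTSL genes, which act in the matrix without enzyme activity, 3 fell and none rose. The share called was 60.0%, beside 50.5% of all genes. Among genes with a mean log2 CPM of at least 0, it was 75.0% of 4 ADAMTSL genes, beside 61.7% of all such genes. Adamtsl1 was at 41.3, 38.9 and 40.7 CPM in DM samples, against 57.7, 55.7 and 55.6 CPM in control samples (-0.48 ± 0.04, adjusted p = 1.36e-07 by limma). Adamtsl5 was at 12.7, 13.5 and 12.9 CPM in DM samples, against 16.6, 16.2 and 15.9 CPM in control samples (-0.32 ± 0.06, adjusted p = 0.000527 by limma). Adamtsl4, which takes part in microfibril assembly, was at 166, 156 and 166 CPM in DM samples, against 189, 183 and 183 CPM in control samples (-0.19 ± 0.03, adjusted p = 0.000114 by limma, and -0.07 when scaled by total reads). All these groups were apart, and the changes were at most 1.40-fold. Adamtsl3 was at 276 ± 3.03 CPM in DM and 273 ± 5.04 CPM in control (SD, n = 3 each) and did not pass (0.01 ± 0.02), but was called higher after quantile normalization (0.06, adjusted p = 0.0153 by limma) and when scaled by total reads (0.13, adjusted p = 0.000238 by limma). Adamtsl2 had 7 reads in DM and 3 in control.

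Summed over each family, reads were higher in DM for MMP and TIMP genes and lower for ADAM genes. MMP genes took 1912, 1932 and 1904 reads per 1000000 mRNA reads in DM samples, against 1409, 1396 and 1417 in control samples, a ratio of 1.36. Of these reads Mmp14 and Mmp2 held 46.0% and 34.7% over all samples. ADAM genes took 1631, 1631 and 1615 reads per 1000000 in DM samples, against 2177, 2165 and 2173 in control samples, a ratio of 0.749, and Adam19 and Adam12 held 50.3% and 28.3% of these. TIMP genes took 1038, 1013 and 1058 reads per 1000000 in DM samples, against 840, 837 and 816 in control samples, a ratio of 1.25. The groups did not overlap in these 3 families, with the smallest exact two-sided permutation p that 3 against 3 samples allow (0.1). The sums of the other two families were close: 1339 to 1387 reads per 1000000 in DM and 1321 to 1338 in control for ADAMTS, and 509 to 515 in DM and 505 to 513 in control for ADAMTSL. The ADAMTS groups did not overlap either (exact permutation p = 0.1), and the ADAMTSL groups did (exact permutation p = 0.7). The direction of both sums depends on the scaling, with ratios of 1.03 and 1.00 on total reads and of 0.95 and 0.927 on the authors' scaled library sizes. On the authors' scale the ratios were 1.26 for MMP, 0.692 for ADAM and 1.15 for TIMP.

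**Figure D4:**
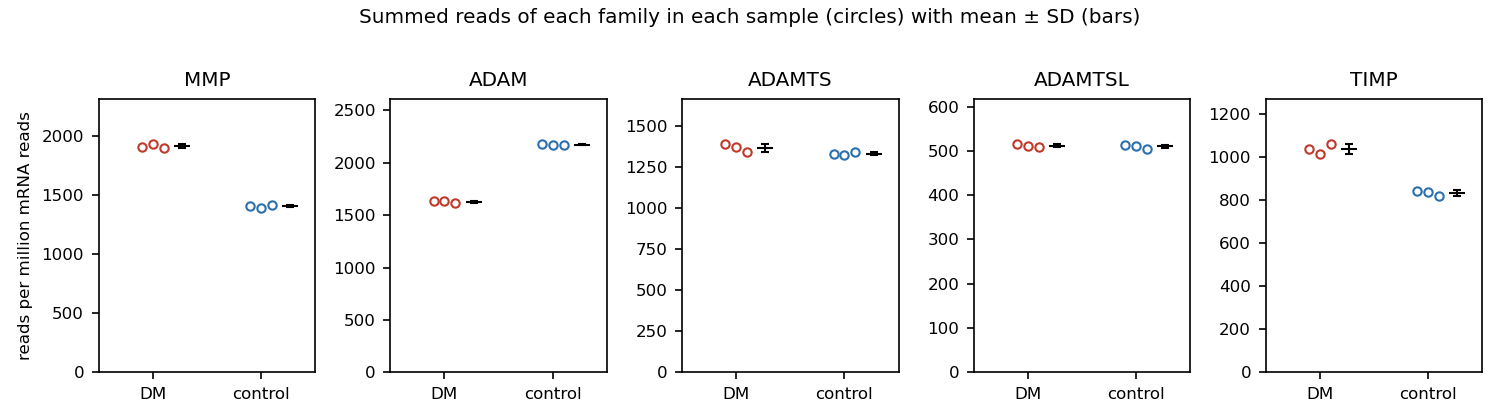
Reads of each family per 1000000 mRNA reads (vertical axes, from 0) in each of 3 DM (red) and 3 control (blue) samples, with mean ± SD. MMP and TIMP sums are higher and ADAM sums lower in all DM samples, and ADAMTS and ADAMTSL sums are close.

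Of 57 listed genes that act with these proteases, 52 were in the table, and 17 were higher, 23 lower and 12 did not pass (median log2 fold change -0.13, beside 0.01 over all genes). Higher calls were 32.7% and lower calls 44.2% of these 52, beside 24.9% and 25.5% of all genes. These partners had a median mean log2 CPM of 5.53, beside 3.61 over all genes. Among all genes with a mean log2 CPM of at least 0, 29.5% were higher and 32.1% lower. When scaled by total reads, the split was 18 higher and 16 lower. Of the proprotein convertases, which activate membrane-type MMPs, ADAMs and ADAMTS enzymes, Furin and Pcsk7 rose (0.14 ± 0.02 and 0.43 ± 0.04), and Pcsk5 and Pcsk6 fell (-0.93 ± 0.04 and -0.42 ± 0.07). In the plasmin system, which activates secreted MMPs, the plasminogen activator gene Plat rose (0.39 ± 0.04), and Plau and Plg did not pass (-0.44 ± 0.25 and 0.22 ± 0.38). Of surface partners, Bsg, an inducer of MMPs, rose (0.18 ± 0.02), Cd44, a hyaluronan receptor that holds MMPs at the membrane, fell (-0.64 ± 0.02), and Tfpi2, an inhibitor of plasmin, rose (0.67 ± 0.09). Lrp1, the receptor that clears many of these proteases, had a log2 fold change of -0.08 ± 0.03 with overlapping groups. Among the ETS factors that regulate MMP genes, Etv5, Etv4 and Ets1 fell (-1.29 ± 0.04, -1.16 ± 0.11 and -0.38 ± 0.03), and Ets2 rose (0.21 ± 0.08). The metalloproteases Pappa and Pappa2, which cut binding proteins of insulin-like growth factors, fell (-0.99 ± 0.02 and -2.49 ± 0.21), Tll2, a scarce relative of Bmp1, rose (2.87 ± 0.75), and of the membrane peptidases Mme fell and Ece1 rose (-0.42 ± 0.04 and 0.31 ± 0.03). Of the fibrillar collagen substrates, Col1a1 and Col2a1 fell (-0.41 ± 0.03 and -1.56 ± 0.17) and Col3a1 rose (0.28 ± 0.01).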

How the data were processed

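RNA-seq was done on 3 DM and 3 control samples, grouped by title. The build Rnor_6.0 and the tools featureCounts 1.6.0, HISAT2 2.1.0 and fastp 0.19.4 are named per the submitters' processing notes. Their roles and settings, the annotation version and the strand of counting were not given in the sources used here. The authors deposited log2 CPM values of voom form, the log2 of reads plus 0.5 over a scaled library size. The lncRNA table held no member and was not used. Reads were worked back from the lowest value of each column, taken as 0 reads, and 100% of values came within 0.01 of a whole read. Every gene had reads in at least 3 of 6 samples, so genes seen in fewer are not analysed here.

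All 16551 genes were fitted with limma 3.58.1 (R 4.3.3) on the deposited log2 values, with group as the term, a mean-variance trend, two-sided tests and Benjamini-Hochberg adjustment over all genes at 0.05. The fit was tested on simulated data, in which few genes changed and all genes had the same scatter setting. That test does not bear on the small changes called here. Read totals were 28780612 to 33108451 per sample, and no sample was a copy of another (mean chi-square per gene 2.91 to 4.62 within groups). Correlations of samples were 0.985 to 0.986 within groups and 0.972 to 0.974 between them. Family sums and ratios were tested by exact permutation in SciPy 1.17.1, and figures drawn with matplotlib 3.10.9 in Python 3.11.15. Alternatives were quantile normalization, scaling by total reads, voom weights, a single variance prior, a filter at a mean log2 of 0, log2(CPM + 1), a replicate block and leaving out each sample.

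Members, families, partner genes and markers were chosen with earlier results of these data known. Members given in every sample are all TIMPs, a panel of 10, and, among called members with a mean log2 of at least 0 and no overlap, up to 5 largest rises and falls of MMP, ADAM and ADAMTS and up to 3 of ADAMTSL. Mmp12, Adam32, Adamts13 and Adamts20 were added after their values were seen. Promoters and gene order are from RefSeq (GRCr8), matched by symbol (57 of 57 members, 40 with a promoter). Protein sequences were not used here, so the planned description of catalytic motifs was not made.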

Additional observations from a re-analysis of the deposited data

How the results depend on the processing

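Of the 57 members, 41 kept their call under all 13 alternatives, or those of them that tested the gene, among them 32 of the 40 called, and the exceptions are given with their values beside each gene above. The filter at a mean log2 of 0 left 43 members. Only Adamts6 changed sign with a call, to 0.09 when scaled by total reads. That scaling moved the median of all genes to 0.125 from 0.012 (log2) and the calls of the whole table to 5932 higher and 2847 lower, beside 4126 and 4228, so changes under about this shift depend on the scaling. Small called changes moved by over 1.5 times with it: Mmp14, Mmp16, Mmp19, Mmp23, Adam10, Adam17, Adamts4 and Timp2 to between 0.20 and 0.30, and Timp1, Adamts9 and Adamtsl5 to -0.20. Quantile normalization gave 0.24 for Mmp14 and 0.23 for Timp2. On log2(CPM + 1), which shrinks scarce genes, Mmp9 was at -0.71, Adamts20 at -0.37, Adamts13 at 0.48 and Adam32 at 0.41. Counts that moved by over 1.5 times were MMP lower (1 with the filter), ADAMTSL higher (1 after quantile normalization and 1 by total reads), TIMP higher (1 with a single variance prior) and partners higher (11 with a single variance prior). By total reads ADAMTS had 9 higher and 5 lower. The members' split of 23 higher and 17 lower turned to 17 higher and 18 lower with a single variance prior, and was 27 and 16 by total reads. Leaving out single samples gave 20 to 23 members higher and 17 to 18 lower, and TIMP 2 to 3 higher. Deviations of same-numbered samples from their group means correlated at -0.0921, -0.0433 and 0.0255, and DM 1 with control 2 at 0.116. No shared shift by replicate number was thus seen, but whether same-numbered samples shared a rat or culture cannot be told from this. With a replicate block 23 members were higher and 18 lower. Members under about 100 reads could not be measured finely at this depth.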
